A study of Homo sapiens with 6 samples.

Results

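The cytosolic ribosomal protein genes were taken from the deposited table of gene counts of a neuroblastoma study. They were the rows whose symbol begins with RPS or RPL followed by a number, with RPLP0, RPLP1, RPLP2 and RPSA. Pseudogenes, Y-linked copies and RPS6K kinases were left out. This gave 84 of 25370 rows. By symbol alone, 32 were assigned to the small subunit and 52 to the large subunit and its stalk. The symbol rule leaves out FAU, RPL36AL and GNB2L1, whose products are also ribosomal or ribosome bound, and it takes in 7 copies of other members, RPL3L, RPL10L, RPL22L1, RPL39L, RPS27L, RPL26L1 and RPL7L1.

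RNA was sequenced from 6 libraries of human neuroblastoma lines. Kelly cells and unmodified (parental) BE2C cells gave 1 library each. BE2C cells with forced overexpression of LMO1 gave 2 libraries and BE2C cells with a vector control gave 2. BE2C and Kelly are established lines that carry extra copies of MYCN, and LMO1 is a transcriptional co-regulator without a DNA-binding domain of its own. All 4 modified libraries carry a construct, and its promoter, any selection and clonality are not given in the sources used. Nothing in the labels states whether the replicate libraries are separate cultures. The p-values below therefore reflect the spread between these particular libraries alone, and that spread may be technical.

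A ribosome is built from a small subunit, which reads the message, and a large subunit, which joins amino acids. Each ribosomal protein is present in about equal numbers in the finished particle, and ribosomal RNA and ribosomal proteins are made in step in growing cells. The messages of vertebrate ribosomal proteins begin with a C followed by an unbroken stretch of pyrimidines, the terminal oligopyrimidine tract, through which mTOR signalling and the protein LARP1 govern their translation and stability. Transcription factors of the MYC family, MYCN among them, are known to raise the expression of genes of ribosome production. RPL5 and RPL11 have a further role: with the 5S RNA they form a particle that can bind MDM2 and so raise p53.

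The tract can be read from the sequence around the transcription start. The stretches below hold 15 bases before and 15 from the start of the RefSeq gene model (GRCh38.p14; the first start listed for a gene was used). They are shown for members that fell with LMO1, for members that did not pass the test, and for members beside their copies. Capitals mark the longest run that begins with C and goes on in C or T. A stretch without capitals had no run of at least 5 bases. RPL27A, RPL34, RPL13A and RPL3 were among the members that fell.
RPL27A (chr11:8682777-8682806, + strand): ttggcgaaggCCTTCCTTTTTCgtctgggc
RPL34 (chr4:108620561-108620590, + strand): aaaggCTTTTTTCTTCCTCTTCCggggacg
RPL13A (chr19:49487593-49487622, + strand): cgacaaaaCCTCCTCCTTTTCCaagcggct
RPL3 (chr22:39319609-39319638, - strand): gtaaggccgaccggCCTCTaccggcgggat
RPL38, RPL39 and RPL41 did not pass the test with LMO1, and their starts hold such runs as well.
RPL38 (chr17:74203663-74203692, + strand): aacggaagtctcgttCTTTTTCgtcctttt
RPL39 (chrX:119791616-119791645, - strand): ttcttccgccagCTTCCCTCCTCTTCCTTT
RPL41 (chr12:56116618-56116647, + strand): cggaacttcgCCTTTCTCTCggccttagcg
RPS27, RPL22 and RPL26 each stand before their copy, RPS27L, RPL22L1 and RPL26L1, and RPL7L1 is the copy that resembles RPL7.
RPS27 (chr1:153990747-153990776, + strand): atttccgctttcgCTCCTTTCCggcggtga
RPS27L (chr15:63157463-63157492, - strand): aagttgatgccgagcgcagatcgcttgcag
RPL22 (chr1:6199581-6199610, - strand): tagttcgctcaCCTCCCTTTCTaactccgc
RPL22L1 (chr3:170870181-170870210, - strand): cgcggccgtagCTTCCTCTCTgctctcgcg
RPL26 (chr17:8383179-8383208, - strand): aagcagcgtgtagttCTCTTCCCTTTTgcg
RPL26L1 (chr5:172958714-172958743, + strand): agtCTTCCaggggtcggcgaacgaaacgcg
RPL7L1 (chr6:42879601-42879630, + strand): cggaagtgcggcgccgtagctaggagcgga
Of these copies, RPL22L1 has kept a long run at the start, whereas RPS27L and RPL7L1 have no run.

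Total counts were 59512958 in the Kelly library, 48663459 in the parental library, 18737591 and 22426978 in the LMO1 libraries, and 21946052 and 25070942 in the vector libraries. Levels are given in CPM, the share of a library's counts on the usual scale, after TMM scaling, which corrects library sizes for composition. The limit that a count of 0 allows, 3 counts, lies between 0.0496 and 0.158 CPM across the libraries and covers counting error only. LMO1 had 6.59 and 5.89 CPM in LMO1 libraries, against 1.06 and 0.928 CPM in vector libraries, and 92.7 CPM in Kelly, against 1.91 CPM in the parental library. MYCN had 1647 and 1568 CPM in LMO1 libraries, against 1664 and 1670 CPM in vector libraries (log2 fold change -0.05, adjusted p = 0.122, edgeR). All 12 neuroblastoma markers examined had at least 1 CPM in every library, with a sum between 7295 and 8962 CPM, while 6 haematopoietic markers summed to between 7.06 and 9.36 CPM and 3 endothelial markers to between 1.43 and 2.71 CPM. The 6 fibroblast markers summed to 109 and 108 CPM in LMO1 libraries, 101 and 107 CPM in vector libraries, and to 161 CPM in Kelly, against 189 CPM in the parental library.

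Some members held few reads. RPL10L, a testis copy of RPL10, had no read, and RPL3L, a heart and skeletal muscle copy of RPL3, was at or below 0.562 CPM in all 6 libraries. RPL21, a protein of every ribosome, had 3 counts in Kelly and none elsewhere. RPL17, RPS10 and RPL36A lay between 3.91 and 27.4 CPM in every library, far below most other members of the core ribosome. Each of these 3 genes also has a row for a readthrough transcript with a neighbour, and these rows were at 0 in all 6 libraries. Reads of near-identical or overlapping genes may be split or dropped in counting, so values of these members are uncertain. In all, 4 members did not pass the filter on low counts, which left 80 members tested.

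Summed over all members, ribosomal protein messages were less abundant with LMO1. The sum was 72064 and 72951 CPM in LMO1 libraries, against 84247 and 84175 CPM in vector libraries. Both LMO1 libraries lay below both vector libraries, and the replicates of each group lay close together. The mean was 72508 ± 627 CPM (SD, n = 2) with LMO1 and 84211 ± 50.8 CPM (n = 2) with vector, a difference of -13.9% or -0.22 on the log2 scale. With 2 libraries against 2 the exact permutation test cannot go below p = 0.333 (two-sided), the value it gave. As shares of all counts, the members took 7.30% and 7.35% in LMO1 libraries, against 8.31% and 8.32% in vector libraries. In bulk RNA, fewer cells of a type and less RNA per cell cannot be told apart, and a share can move with the rest of the library.

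**Figure D1:**
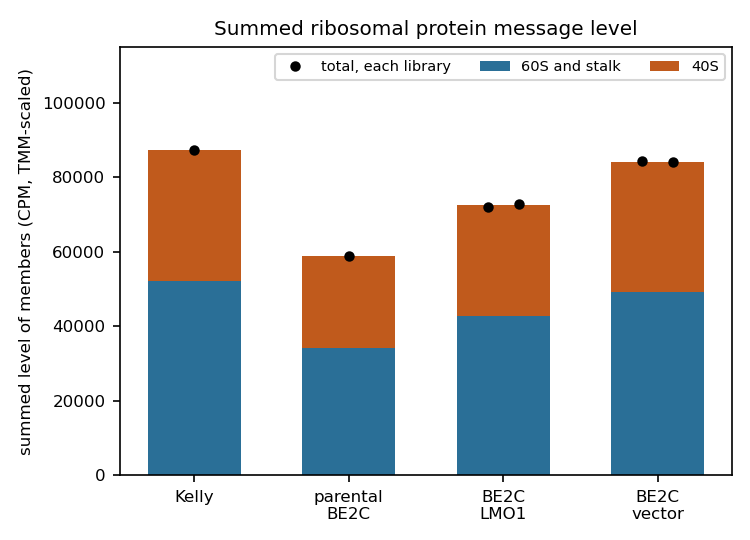
Summed level of the 84 ribosomal protein genes (y axis, CPM from 0) in each group. Bars are group means split into small subunit (40S) and large subunit with stalk (60S), and points are single libraries. The sum was highest in Kelly (87243 CPM) and lowest in parental BE2C (58944 CPM), and both LMO1 libraries were below both vector libraries.

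By gene, 68 of the 80 members tested fell with LMO1 and 0 rose (edgeR quasi-likelihood test, adjusted p below 0.05 over all 15480 genes tested). Over all genes tested, 15.1% fell and 15.9% rose. No member had a higher level at an unadjusted p below 0.05, and DESeq2 and limma-voom also gave 0 higher calls, with 65 and 69 lower calls. The members' median log2 fold change was -0.21, with quartiles of -0.27 and -0.13, beside a median of 0.00 over all genes. In 73 of 80 members both LMO1 libraries lay below both vector libraries, as in 32.1% of all genes tested, and in 2 members, RPS15 and RPL39L, both lay above, as in 31.5% of all genes. None of the called members was past 1.5-fold. The log2 ratio of the first to the second library of the same group had a median over members of -0.03 for LMO1 and 0.00 for vector. Among the 73 tested members with a mean of at least 100 CPM 66 fell, and among the 7 below it 2 fell, RPL17 and RPL26L1.

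**Figure D2:**
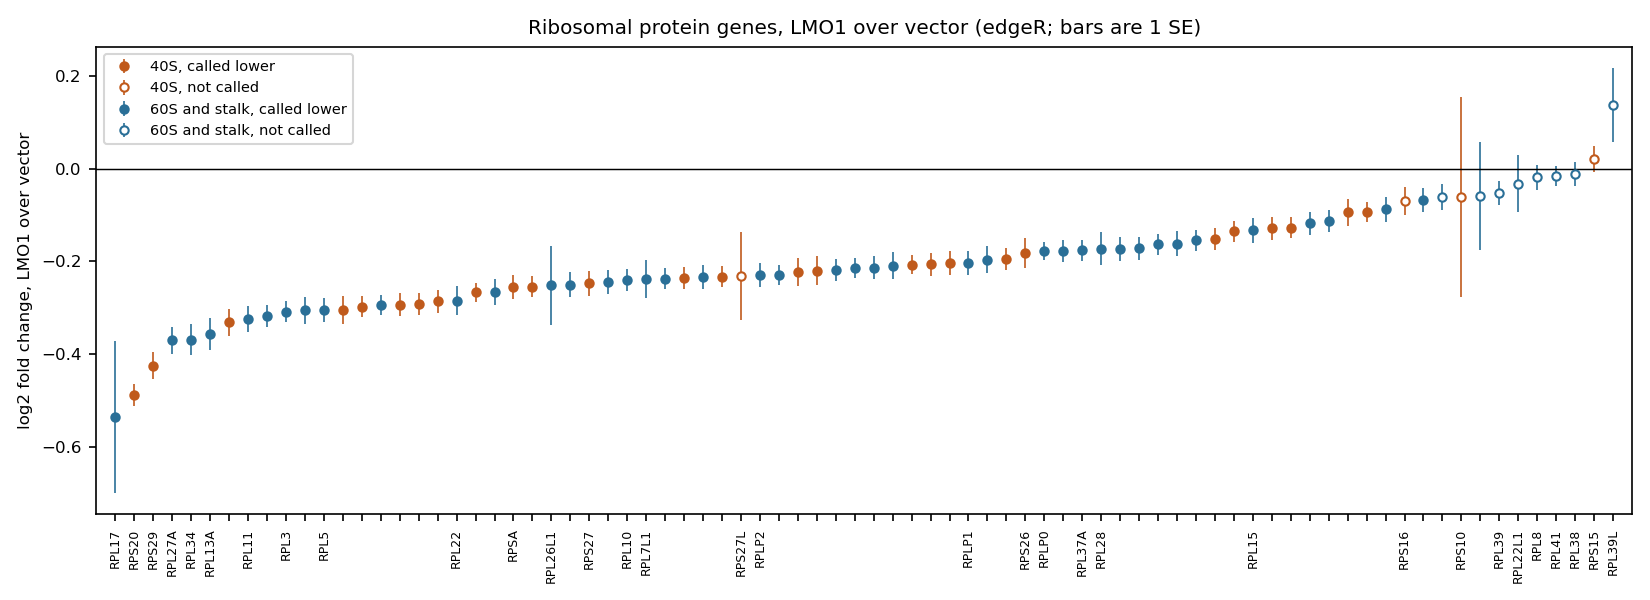
Log2 fold change LMO1 over vector of the 80 members tested (y axis, log2) with bars of 1 SE, ordered from lowest to highest along the x axis, with the symbols of the members chosen for naming. Colours mark the subunit, filled points are the 68 members called lower by edgeR and open points the 12 not called, and all filled points lie below 0.

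The 2 subunits had similar medians. The summed small subunit level divided by the summed large subunit level was 0.706 and 0.697 in LMO1 libraries, 0.718 and 0.714 in vector libraries. It was 0.677 in Kelly and 0.726 in the parental library. Of 31 small subunit genes tested, 27 fell and none rose, with a median log2 fold change of -0.22. Of 49 large subunit and stalk genes, 41 fell and none rose, with a median of -0.21. The difference between the medians, -0.01, ran from -0.03 to -0.003 when single libraries were left out.

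Other genes of high level or short coding sequence were set beside the members. Of 426 others that averaged 300 CPM or more, 174 were lower, or 40.9%, and 107 were higher. Their median log2 fold change was -0.04. Of 1073 other genes with coding sequences up to 500 bases, 94 were lower, or 8.76%, and 246 were higher, with a median of 0.06. Among the members themselves the log2 fold change had a Pearson r of -0.34 and a Spearman rho of -0.32 with coding length over 80 genes. Longer members thus tended to lower values, as did longer other genes. With mean level the members' r was 0.05. These members share libraries and depth, so the coefficients describe these libraries only.

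Small subunit genes gave the largest well-measured fall. RPS20, a protein of the subunit's head, had 886 and 880 CPM in LMO1 libraries, against 1239 and 1249 CPM in vector libraries. The groups stood well apart, with a log2 fold change of -0.49 (SE 0.0241, adjusted p = 6.42e-22, edgeR). RPS29, a zinc-binding protein, had 439 and 465 CPM with LMO1, against 610 and 609 CPM with vector (-0.43, SE 0.0291, adjusted p = 1.13e-16, edgeR). RPSA, which as a cell-surface form is also known as the laminin receptor, had 784 and 827 CPM with LMO1 and 967 and 964 CPM with vector (log2 fold change -0.26, SE 0.0261, adjusted p = 3.88e-11, edgeR). RPS6, the substrate of the S6 kinases, had 851 and 868 CPM with LMO1 and 1036 and 1068 CPM with vector, and RPS19, the gene most often mutated in Diamond-Blackfan anaemia, had 1017 and 1050 CPM with LMO1 and 1271 and 1272 CPM with vector. Both fell, by 0.29 on the log2 scale, and were named after their values were seen.

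In the large subunit, RPL27A, RPL34 and RPL13A fell most among members with at least 100 CPM. RPL27A had 423 and 422 CPM in LMO1 libraries, against 551 and 546 CPM in vector libraries (log2 fold change -0.37, SE 0.0284, adjusted p = 4.71e-15, edgeR). RPL34 had 260 and 273 CPM with LMO1, against 356 and 336 CPM with vector (-0.37, SE 0.0338). RPL13A, known in human myeloid cells also as a silencer of inflammatory messages, had 222 and 224 CPM with LMO1, against 291 and 283 CPM with vector (-0.36, SE 0.0339). In all 3 the groups were separated by more than the spread within either. RPL17 had the lowest fold change of all, -0.53, but on few reads: it had 6.22 and 5.84 CPM with LMO1, against 9.24 and 8.31 CPM with vector (adjusted p = 0.0100, edgeR). Its call was lost with DESeq2 (adjusted p = 0.0752), without the second LMO1 library (0.0858) and without the first vector library (0.0894).

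The 5S particle and the stalk moved with the rest. RPL5 had 763 and 806 CPM with LMO1, against 961 and 985 CPM with vector, and RPL11 had 499 and 516 CPM with LMO1, against 625 and 649 CPM with vector. Their log2 fold changes, -0.30 and -0.32, were close to each other and both passed the test (adjusted p = 3.25e-13 and 4.23e-13, edgeR). The stalk, which recruits elongation factors to the ribosome, is formed by RPLP0, RPLP1 and RPLP2. RPLP0 had 3475 and 3567 CPM with LMO1 and 4013 and 3978 CPM with vector. RPLP1 had 711 and 741 CPM with LMO1 and 844 and 834 CPM with vector. RPLP2 had 672 and 650 CPM with LMO1 and 779 and 777 CPM with vector. All 3 fell, by 0.18, 0.20 and 0.23 on the log2 scale. RPL3, which lies near the peptidyl transferase centre, had 1854 and 1956 CPM with LMO1, against 2387 and 2350 CPM with vector (-0.31), and RPL10, which completes the large subunit, had 1481 and 1566 CPM with LMO1, against 1818 and 1796 CPM with vector (-0.24).

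**Figure D3:**
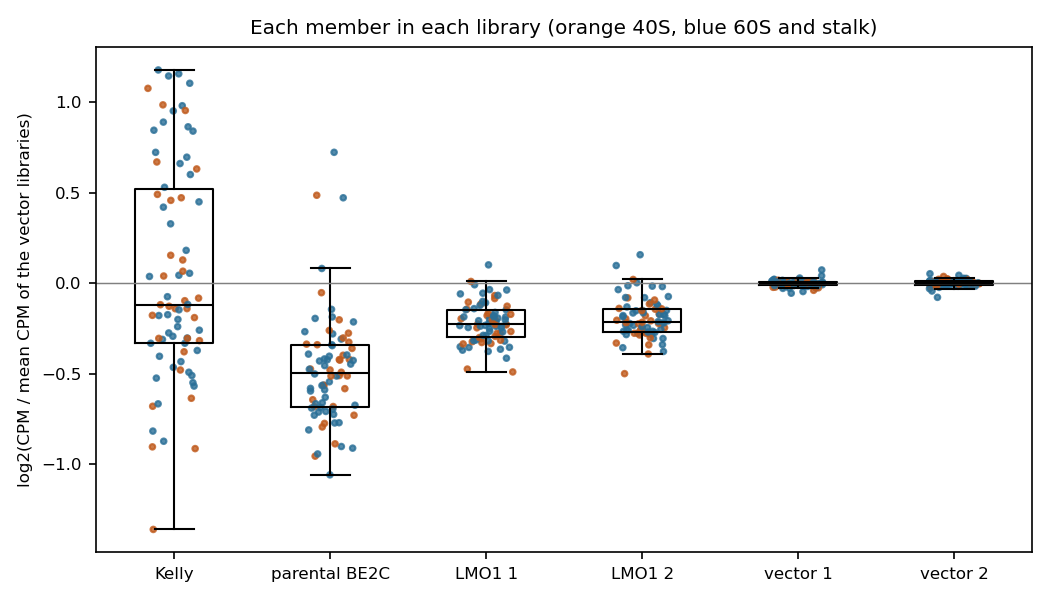
Level of 78 tested members with a mean of at least 10 CPM in each library (x axis), as log2 of CPM over the mean of the vector libraries (y axis), 1 point per member with a box for the quartiles and median. Most members lie below 0 in both LMO1 libraries and further below it in parental BE2C, and the members are most widely spread in Kelly.

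The 12 members without a call were RPL41, RPS27L, RPL38, RPS15, RPS16, RPL22L1, RPL39L, RPS10, RPL8, RPL35, RPL36A and RPL39. Several are abundant and precisely measured. RPL41, the smallest ribosomal protein, had 2034 and 1997 CPM with LMO1, against 2027 and 2065 CPM with vector, and the groups overlapped (log2 fold change -0.02, SE 0.0219). RPL38, which in mice is needed for translation of a group of Hox messages, had 630 and 648 CPM with LMO1, against 649 and 644 CPM with vector (-0.01, SE 0.0269), again with overlap. RPS15 had 564 and 569 CPM with LMO1, against 562 and 559 CPM with vector (0.02, SE 0.0274), and RPL8 had 519 and 527 CPM with LMO1, against 530 and 534 CPM with vector (-0.02, SE 0.0279). Each of these 4 differences was smaller than its SE. The estimates of RPL41, RPL38 and RPL8 were of either sign across the alternatives. RPL39 had 906 and 961 CPM with LMO1, against 964 and 979 CPM with vector. Its adjusted p was 0.133 (edgeR), and it passed the test without the second LMO1 library (0.000721) and with no filter on low counts (0.0304).

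Per kilobase of coding sequence, RPL41 was the most abundant member over the 6 libraries (24708 CPM per kb), ahead of RPS27 (7066) and RPL39 (5702). All 3 have very short coding sequences beside their untranslated ends, so this scale overstates them. RPS27, a zinc-binding small subunit protein, had 1935 and 1742 CPM with LMO1, against 2179 and 2200 CPM with vector, and fell by 0.25 on the log2 scale. RPL41 and RPL39 were not called, and the differences between these fold changes were not tested.

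The start sites were set beside these fold changes. Of the 84 members 67 were matched to a RefSeq promoter of 250 bases before to 50 bases after the start. A run that begins with C, goes on in C or T for at least 8 bases and begins within 25 bases of the start was present in 53 of them, 79.1%, against 17.7% of all 27305 promoters. A run of at least 5 bases was present in 91.0% of members, against 56.3% of all promoters. Among matched members tested, 44 of 52 with the longer run fell (median log2 fold change -0.22), as did 11 of 13 without it (-0.23). Other genes with a run of at least 8 bases had 322 of 1798 lower and 302 higher, and a median of 0.00. Run length and log2 fold change had an r of 0.01 over 65 members. A run near an annotated start is a description of that sequence and not a measured start of the message.

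Short motifs were searched on both strands of the same windows. The ETS core CCGGAAG was present in 23 of the 67 members, 34.3%, against 10.7% of all promoters. AAGATGG, the core bound by YY1, was present in 13.4% of members and 6.06% of all promoters. The E-box CACGTG, the motif bound by MYC proteins, was present in 4 members, 5.97%, against 7.43% of all promoters, and TATAAA in 10.4% of members and 12.0% of all promoters. The promoter of RPL13A holds both an E-box, 221 bases before the start, and an ETS core, 177 bases before it. It is shown for the 250 bases before the start (chr19:49487358-49487607, + strand, GRCh38.p14) with both motifs in capitals.
RPL13A promoter: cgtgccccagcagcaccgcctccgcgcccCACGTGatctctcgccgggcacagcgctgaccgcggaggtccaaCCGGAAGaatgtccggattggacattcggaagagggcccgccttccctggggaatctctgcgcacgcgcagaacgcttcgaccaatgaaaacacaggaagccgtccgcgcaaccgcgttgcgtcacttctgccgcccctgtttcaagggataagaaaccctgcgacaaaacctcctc

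Copies of ribosomal proteins were compared with the gene they resemble, as the level per coding kilobase in percent of that gene. RPL22L1, which can take the place of RPL22 in the ribosome, stood at 19.1% and 18.9% of RPL22 in LMO1 libraries, against 15.6% and 16.2% in vector libraries, and at 8.38% in Kelly, against 15.5% in the parental library. The mean was 19.0 ± 0.142% with LMO1 and 15.9 ± 0.438% with vector (SD, n = 2 each), and the groups did not overlap. RPL22 itself had 332 and 344 CPM with LMO1, against 406 and 421 CPM with vector (log2 fold change -0.29, SE 0.0311, adjusted p = 2.27e-10, edgeR). RPL22L1 had 60.4 and 61.9 CPM with LMO1, against 60.4 and 65.0 CPM with vector (-0.03, SE 0.0616, adjusted p = 0.747, edgeR). The difference between these 2 fold changes was not tested. In Kelly, RPL22 had 815 CPM, against 374 CPM in the parental library, while RPL22L1 had 65.1 CPM in Kelly and 55.1 CPM in the parental library.

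RPL39L, a testis copy of RPL39 that is also found in some tumours, stood at 3.75% and 3.67% of RPL39 with LMO1, against 3.35% and 3.17% with vector. It had 33.9 and 35.3 CPM with LMO1 and 32.3 and 31.0 CPM with vector (log2 fold change 0.14, adjusted p = 0.202, edgeR). RPS27L, a target of p53, stood at 1.07% and 1.31% of RPS27 with LMO1, and at 1.19% and 1.15% with vector, with the groups overlapping. Kelly, at 2.31%, lay above every BE2C library. RPS27L had 20.7 and 22.8 CPM with LMO1, against 26.0 and 25.4 CPM with vector. Its adjusted p of 0.0571 (edgeR) missed the threshold, and it passed without the second LMO1 library (0.0350) and with no filter (0.0449).

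RPL26L1 stood at 1.97% and 2.09% of RPL26 with LMO1, against 2.21% and 2.13% with vector, and had 25.9 and 27.0 CPM with LMO1, against 32.1 and 31.1 CPM with vector. It fell by 0.25 on the log2 scale (adjusted p = 0.0199, edgeR), a call lost with DESeq2 (0.103) and without the first LMO1 library (0.0711), the first vector library (0.105) or the second (0.0524). RPL7L1 stood at 9.57% and 9.08% of RPL7 with LMO1 and at 9.03% and 9.60% with vector. It fell by 0.24, as did RPL7 (RPL7 had 1465 and 1509 CPM with LMO1, against 1759 and 1761 CPM with vector). Kelly had the lowest share of the parent for RPL22L1, RPL39L, RPL26L1 and RPL7L1, and the highest for RPS27L.

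**Figure D4:**
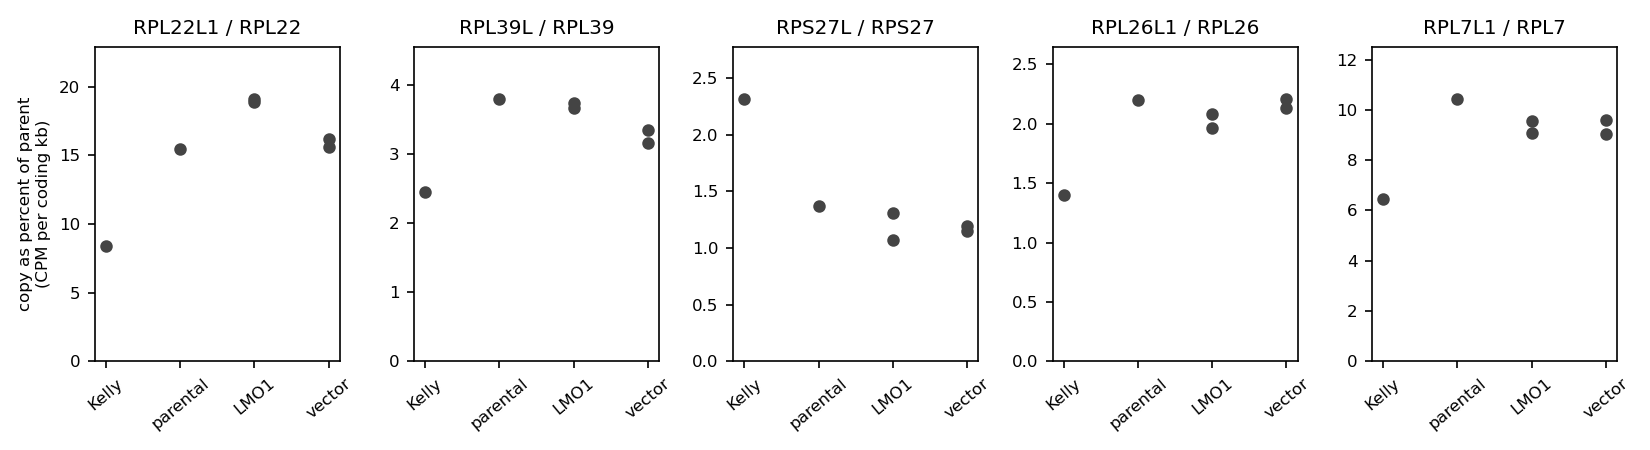
Level of 5 copies as percent of their parent gene, per coding kilobase (y axis, from 0 in each panel), with 1 point per library. RPL22L1 over RPL22 is higher in both LMO1 libraries (19.1% and 18.9%) than in both vector libraries (15.6% and 16.2%) and lowest in Kelly (8.38%).

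Other genes of protein synthesis were set beside the members, from lists of known function. Of 34 translation initiation factors 20 fell and 1 rose, with a median log2 fold change of -0.14. EIF3L and EIF3E, subunits of the factor that loads the small subunit, fell by 0.37 and 0.35 on the log2 scale, and EIF4B, a helper of the cap-binding complex, by 0.24. Of 20 elongation factors and other messages with an oligopyrimidine tract, 14 fell and 0 rose (DESeq2 13 and 0, limma-voom 14 and 0, and 0 higher at an unadjusted p below 0.05), with a median of -0.18. EEF2, the translocase of elongation, had 4184 and 4176 CPM with LMO1, against 5637 and 5666 CPM with vector (-0.43, SE 0.0188, adjusted p = 7.93e-24, edgeR). NACA, which binds emerging chains, fell by 0.31, and GNB2L1, a scaffold on the small subunit, by 0.24. Of 12 host genes of small nucleolar RNAs, many of which carry the same tract, 10 fell and 0 rose (DESeq2 8 and 0, limma-voom 10 and 0, and 0 higher at an unadjusted p below 0.05), with a median of -0.23. GAS5 fell by 0.27, SNHG5 by 0.25 and SNHG16 by 0.16.

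Lists outside cytosolic translation moved less or in both directions. The mitochondrial ribosome is built from another set of proteins, of which 16 of 77 genes fell and 2 rose (median -0.06). The fall was largest for MRPL15 among the 3 with the lowest p (-0.55), ahead of MRPS27 (-0.25) and MRPL9 (-0.24). Of 81 nuclear genes for oxidative phosphorylation 17 fell and 10 rose (median -0.01, of the other sign under total-count scaling). ATP5A1 fell by 0.21, and COX7B and NDUFA5 rose by 0.24 and 0.30. These counts depended on single libraries: without the first LMO1 library 7 mitochondrial ribosomal genes and 8 oxidative phosphorylation genes fell, without the second 13 and 10, without the first vector library 7 and 11, and without the second 8 and 10. Under total-count scaling 8 and 10 fell, and with DESeq2 7 and 8. Of 15 housekeeping genes 6 fell and 4 rose (median 0.02), among them PGK1 at 0.43, B2M at 0.42 and TFRC at -0.48 on the log2 scale. The summed level of the mitochondrial ribosomal genes was 3983 and 4064 CPM with LMO1, against 4280 and 4215 CPM with vector. Markers went both ways: of 12 neuroblastoma markers 5 rose and 5 fell, of 5 fibroblast markers tested 2 rose and 1 fell, of 2 endothelial markers 1 rose and 1 fell, and of 2 haematopoietic markers none was called by edgeR, DESeq2 or limma-voom, nor higher at an unadjusted p below 0.05. DBH rose by 2.57, CHGB by 0.75 and STMN2 by 0.45 on the log2 scale, beside the 5 neuroblastoma markers that fell. Among fibroblast markers, DCN rose by 0.84 and LUM by 1.06, and COL3A1 fell by 1.80. The part of these markers in the ribosomal protein result was not tested.

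Unmodified BE2C cells were not like the vector libraries in these genes. The summed level was 58944 CPM in the parental library, 0.700 times the vector mean. With 1 parental library no test was made, and log2 ratios were taken of CPM with 1 added. Over the 81 members with at least 5 CPM on either side the median log2 ratio of parental over vector was -0.49, against 0.03 over all genes. Of these, 29 were lower in the parental library past 1.5-fold, as were 8.57% of all genes, and 1, RPL28, was higher, as were 18.3% of all genes. For 66 of the 80 members tested the parental library lay below all 4 modified libraries, as it did for 34.8% of all genes. It lay below both LMO1 libraries for the same number of members, 66, and for 45.0% of all genes. It lay above all 4 for RPLP1, RPS16, RPL28 and RPS10, against 37.1% of all genes, and within their range for 10 members.

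RPL13A was lower still in unmodified cells, with 138 CPM in the parental library, against 291 and 283 CPM in vector libraries (log2 ratio -1.05). RPS20, with 642 CPM in the parental library, and RPL37A, with 866 CPM against 1649 and 1678 CPM with vector, had log2 ratios of -0.95 and -0.94. On the other side, RPL28 had 464 CPM in the parental library, against 282 and 280 CPM with vector (0.72), RPS16 had 627 CPM, against 436 and 460 CPM (0.48), and RPLP1 had 1163 CPM, against 844 and 834 CPM (0.47). RPLP1 and RPLP2 form dimers in the stalk, and RPLP2 was lower in the parental library, at 518 CPM against 779 and 777 CPM with vector. Mitochondrial ribosomal genes (median -0.36), oxidative phosphorylation genes (-0.47) and small nucleolar RNA host genes (-0.48) were also lower in the parental library, with initiation factors at -0.21 and housekeeping genes at 0.08. The parental library appears from its sample number to have been submitted apart from the modified libraries. The construct, the culture, any difference in preparation and the greater depth of the parental library cannot be told apart here. The vector libraries serve both in this comparison and in that with LMO1.

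Kelly cells had the highest summed level of the members. It was 87243 CPM in Kelly, against 58944 CPM in the parental library, 1.48 times as high, with 1 library on each side and no test. The vector libraries, at 84247 and 84175 CPM, were much closer to Kelly, with 8.31% and 8.32% of all counts against 8.87%. The ratios below set Kelly beside the parental library, which had the lowest sum of all 6 libraries, and not beside vector. Of 81 members with at least 5 CPM in Kelly or parental, 68 were higher and 13 lower in Kelly, with a median log2 ratio of 0.42, against -0.04 over all genes. Past 1.5-fold on this scale, of CPM with 1 added, 27 members were higher, as were 25.1% of all genes, and the members' share lies near that background. Past it in the other direction was 1 member, RPS26, as were 24.9% of all genes. Past 2-fold, 19 members were higher, as were 15.1% of all genes. The ratios were therefore uneven, and their SD over members was 0.61 on the log2 scale, against 0.11 for the fold changes with LMO1.

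RPL11 had 1232 CPM in Kelly, against 400 CPM in the parental library, a ratio of 3.08 (95% exact Poisson interval 3.03 to 3.13, counting error only). RPL34 had 771 CPM in Kelly, against 257 CPM (ratio 3.0), RPL15 had 1528 CPM, against 515 CPM (2.97), and RPSA had 2035 CPM, against 693 CPM (2.94). RPL5, the partner of RPL11, had 2150 CPM in Kelly, against 786 CPM in the parental library, a ratio of 2.74. RPS26, which lies at the exit of the message channel, was lower in Kelly, with 125 CPM against 254 CPM in the parental library (ratio 0.493, interval 0.479 to 0.508). The next lowest ratios were those of RPS10 (0.656), RPL17 (0.663) and RPL26L1 (0.722), all at low counts, with intervals below 1. These are ratios of CPM with nothing added. With 1 added, the log2 ratios of RPS10 and RPL17, both -0.51, are short of 1.5-fold. Stalk genes were nearly level: RPLP0 had a ratio of 0.997, RPLP1 0.905 and RPLP2 1.16.

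The members' place in the genome was set beside these ratios. Members are scattered over nearly all chromosomes, and 9 members on chromosome 3 had a median of 1.14 for the log2 ratio of Kelly over parental, with 0.45 for 658 other genes there. On chromosome 4, 3 members had a median of 1.40 and 390 other genes 0.60, and on chromosome 1, 5 members had a median of 1.13 and 1137 other genes 0.38. By contrast 12 members on chromosome 19 had a median of 0.29, with -0.16 for 786 other genes. The 5 members on chromosome 6 had a median of -0.12 and 536 other genes -0.23. On several chromosomes the 2 medians were of opposite sign. On chromosome 9, 4 members had 0.69 and 454 other genes -0.22, and on chromosome 16, 3 members had 0.38 and 503 other genes -0.41. The 1 member on chromosome 18 had -0.51 and 156 other genes 0.12.

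At a finer scale, each member was compared with the median ratio of its nearest measured genes, 20 on either side in RefSeq order and leaving out ribosomal protein genes. Across 80 members the log2 ratio of Kelly over parental and the median of the neighbours had a Pearson r of 0.76 and a Spearman rho of 0.67. With 10 and 40 neighbours on either side, numbers chosen after seeing the data, r was 0.74 in both. Across 11315 other genes r was 0.37, and across 387 others with at least 300 CPM it was 0.47. All of these points share the same pair of libraries, and close members share neighbours. The 18 tested members that were at least 2-fold higher in Kelly all had a neighbour median above 0, between 0.23 and 0.86, whereas 13 of the 62 other members tested did. RPL11 had a neighbour median of 0.82 and RPL5 one of 0.43. RPS27, lower in Kelly with a log2 ratio of -0.33, had neighbours at -1.34, and RPS25, at -0.36 and named after its values were seen, had neighbours at -1.30. RPS26 was an exception, with a log2 ratio of -1.01 and neighbours at -0.18.

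Relative to the neighbours the members were more even. The member's ratio minus that of its neighbours had a median of 0.61, and its SD over members was 0.36, against 0.56 for the ratio itself. The corresponding differences of other genes had a median of 0.00. Both were taken against the parental library, which had the lowest summed member level of the 6 libraries. The comparisons within BE2C had coefficients near 0: for LMO1 over vector the r between members and neighbours was 0.01, and for parental over vector it was -0.09. Copy number was not measured in these libraries. The log2 ratio of Kelly over parental and the fold change with LMO1 had an r of -0.10 over the 80 members.

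**Figure D5:**
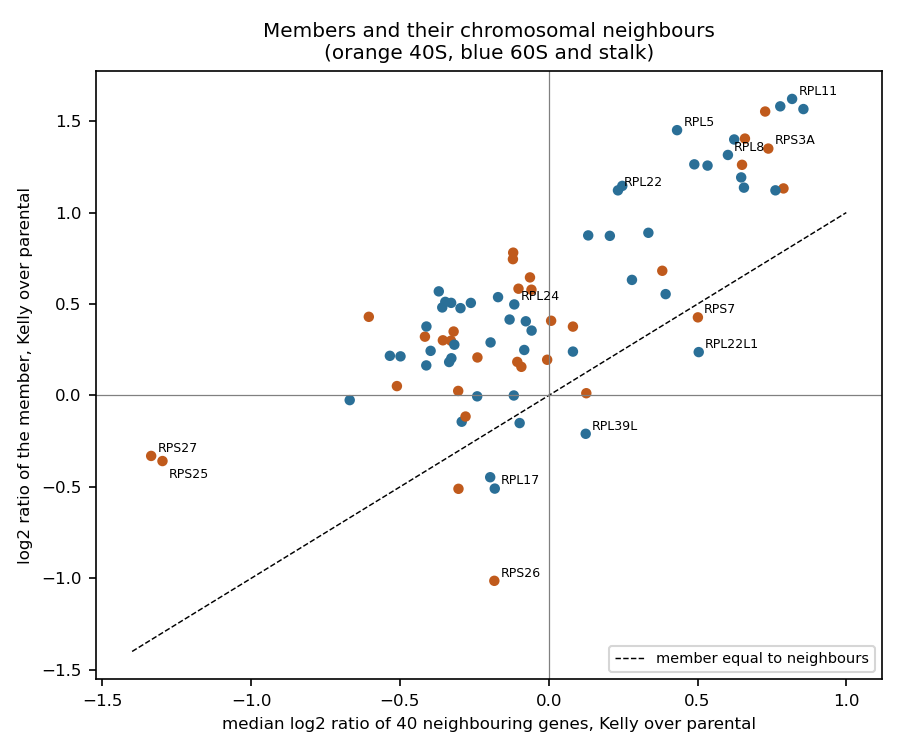
Log2 ratio of Kelly over parental for each of 80 members (y axis) against the median ratio of its 40 nearest measured genes (x axis), with the line where they are equal. Points run from RPS27 and RPS25 at lower left to RPL11 at upper right (Pearson r 0.76), and most lie above the line.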

How the data were processed

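The table the authors deposited holds raw counts for each gene symbol, 1 column per library, from stranded total RNA libraries per the labels' protocols. Per the submitters' processing notes, TopHat2 2.0.6, HTSeq and hg19 were used; no annotation or strand setting is named. Counts from LMO1 and vector libraries were scaled by TMM, filtered with filterByExpr (15480 genes kept, 9890 removed) and tested in edgeR 4.0.16 (R 4.3.3) with the quasi-likelihood F test and Benjamini-Hochberg adjustment over all genes. An SE is the log2 fold change divided by the root of F. Alternatives used DESeq2 1.42.0 and limma 3.58.1. Comparisons with a single library on a side used log2(CPM + 1) for genes reaching 5 CPM on either side, which understates changes of low genes. Replicate libraries were counted separately, since their counts differed beyond sampling noise (chi-square over its degrees of freedom was 2.91 between LMO1 and 2.75 between vector libraries), and the common biological coefficient of variation was 3.60%. The edgeR step was also run on simulated counts with the same dispersion for every gene, which these data need not have. No result above rests on that run. Coding lengths came from GENCODE, and names, gene order and promoters from RefSeq. The named members were copies and their parents, RPL5, RPL11, RPSA, the stalk genes, the 6 highest and 6 lowest LMO1 fold changes, the 3 most abundant per length, the 4 highest and 4 lowest of each ratio, and 3 genes of each list. Results of some members are not reported here. Members and lists were chosen with earlier results of these data known. Reads carried no molecular identifiers, so intervals and floors cover counting error only.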

Additional observations from a re-analysis of the deposited data

How the results depend on the processing

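Of the members, 64 to 73 were called lower under 13 alternative fits (64 to 70 with single libraries left out) and 0 higher in each. With the replicate number as a block, 67 were called lower, against 68. Deviations of libraries with the same number had a correlation of -0.02. With 2 libraries in each group, this value cannot show whether such libraries share a culture or a preparation. The members' median log2 fold change was -0.19 under total-count scaling, -0.20 with a filter of 5 CPM in 2 libraries, and -0.2228 to -0.2118 with single libraries left out. The subunit difference of medians ran from -0.029 to -0.0027 with single libraries left out. Fits that leave out a library assume that the lone library varies like the others. The summed level gave -0.18 under total-count scaling and -0.23 with DESeq2 size factors. Total-count scaling moved the median of all genes to 0.03. For Kelly over parental the members' median was 0.45 under total-count scaling, 0.44 with DESeq2 size factors, 0.42 with a pseudocount of 0.1 and 0.41 without histone and small RNA rows. For parental over vector it was -0.53 with DESeq2 size factors, -0.50 without histone and small RNA rows, and -0.50 without 4 members of low or uneven counts, an alternative chosen after seeing the data. Oxidative phosphorylation genes had a median of 0.0147 under total-count scaling and 0.00335 with the 5 CPM filter. With single libraries left out, the median of housekeeping genes ran from -0.0296 (without the second LMO1 library) to 0.0445, with -0.00396 without the second vector library. The cause of these shifts was not tested. Among the named members, RPL17, RPL26L1, RPS27L, RPS16 and RPL39 changed call in some alternatives, and so did some members that are not named. Depth leaves little precision for members under 30 CPM, and none for the members left untested.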
